A study of Homo sapiens with 10 samples.

Results

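Genes named at Alzheimer's disease risk loci were followed in human microglia that had lived in the mouse brain with and without amyloid plaques. The members are 42 genes, taken from a list of names and not by a rule on their values, of the 36591 human genes in the deposited table. This list and those of related genes used below were made with earlier results of these data known. A risk locus is a stretch of the genome where common variants differ in frequency between patients and controls, and the gene named at it is the candidate through which the variants may act. Many of these genes are active in microglia, the resident macrophages of the brain, where they take part in endocytosis, lysosomal degradation, signalling from immune receptors and control of the actin skeleton. Other risk genes, such as APOE, TREM2 and the MS4A cluster, were read only for comparison.

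Human microglia were differentiated from H9, an established embryonic stem cell line, and grafted at postnatal day 4 into the brains of mice lacking Rag2 (Rag2KO) and carrying human CSF1 (hCSF1KI). The 5 AppHu mice (labelled AppKI) carried in addition an App gene with a humanized amyloid-β sequence and no disease mutation, and the 5 AppSAA mice carried the same humanized sequence with the Swedish, Arctic and Austrian mutations, under which plaques form. All grafts came from 1 cell line. Mice of both sexes were used in each group, in proportions that differed between the groups. The sex of each mouse is not in the labels, so it did not enter the fit. The newborn hosts had received a CSF1R inhibitor against their own microglia, and they kept NK cells and part of their own microglia. At 6 months of age the cells positive for CD11b and human CD45 were sorted from each brain and their RNA was sequenced in bulk, 1 library per mouse.

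Total counts ranged from 29414003 to 39641854 in AppHu (median 34017595) and from 25040739 to 31615544 in AppSAA (median 29128366), and the totals were lower in AppSAA (exact permutation test over 252 arrangements, two-sided, p = 0.0397). For the counts on human genes alone, which entered the fits of human genes, the same permutation test gave p = 0.0714. Their medians were 32956814 in AppHu and 28510903 in AppSAA. Mouse genes took 3.12% to 4.97% of the counts in AppHu and 2.12% to 3.85% in AppSAA. The label microglia was checked against markers in the human rows. All 13 microglia markers were expressed, with P2RY12 between 344475 and 547107 counts in every library, while STMN2, AQP4, ALDH1L1, GJA1, MOG, CLDN5 and CDH5, which mark neurons, astrocytes, oligodendrocytes and endothelial cells, were at 0 counts in all 10. The 6 markers of CNS-associated macrophages, which also carry CD11b and CD45, summed to 3487 to 4070 CPM (counts scaled to a normalized library of 1000000 counts) in AppHu and 2927 to 3785 in AppSAA. Their means in AppHu and AppSAA were 1941 and 1782 CPM for STAB1, 1236 and 920 for MRC1, and 500 and 360 for LYVE1. Those of F13A1 were 87.5 and 53.9, of CD163 50.9 and 35.1, and of SIGLEC1 68.0 and 79.5. The 6 astrocyte markers summed to 333 to 457 CPM in AppHu and 519 to 576 in AppSAA, of which SLC1A3, a glutamate transporter, made up nearly all, with means of 407 and 555 CPM. The sums for oligodendrocytes (108 to 140.0 CPM in AppHu, 88.7 to 149 in AppSAA) and endothelial cells (105 to 162 and 109 to 120) and for monocytes and neutrophils (931 to 1053 and 954 to 1020) rested on MBP and CNP, on PECAM1 and on CSF3R, and those for neurons, lymphocytes and stem cells were at most 7.83 CPM. The part of these other cells in the results below was not tested. In bulk RNA, fewer cells of a type and less RNA per cell cannot be told apart.

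The 3 sequences printed here are promoter windows of the members ICA1, SORL1 and CD2AP. For ICA1 and SORL1 the AppHu and AppSAA libraries did not overlap. Those of CD2AP overlapped, with a lower mean in AppSAA. The levels given for these 3 genes are counts over all transcripts of a gene, and how many of them start in the window was not tested. Each runs from 250 bases before to 50 bases after the RefSeq start site on GRCh38.p14, 5′ to 3′ on the gene's strand. Capitals mark the motifs searched on both strands. These were GGGCGG (a GC box, bound by SP and KLF factors), CACGTG (an E-box), TGANTCA (bound by AP-1) and GAGGAAGT (bound by PU.1, the factor on which the myeloid lineage depends), and in these windows no motif overlapped another.
ICA1, chr7:8262118-8262417, reverse strand: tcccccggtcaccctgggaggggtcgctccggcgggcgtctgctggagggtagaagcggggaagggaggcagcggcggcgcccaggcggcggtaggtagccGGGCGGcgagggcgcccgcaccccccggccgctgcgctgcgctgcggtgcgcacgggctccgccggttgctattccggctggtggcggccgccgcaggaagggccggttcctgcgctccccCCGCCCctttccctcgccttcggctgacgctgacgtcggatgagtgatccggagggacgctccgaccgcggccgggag
SORL1, chr11:121452064-121452363, forward strand: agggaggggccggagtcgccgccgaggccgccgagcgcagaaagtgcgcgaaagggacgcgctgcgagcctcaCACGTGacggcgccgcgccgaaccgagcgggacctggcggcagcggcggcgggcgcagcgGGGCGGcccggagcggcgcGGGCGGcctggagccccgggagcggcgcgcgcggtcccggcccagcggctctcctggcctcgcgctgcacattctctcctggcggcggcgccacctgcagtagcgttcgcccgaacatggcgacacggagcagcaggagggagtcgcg
CD2AP, chr6:47477539-47477838, forward strand: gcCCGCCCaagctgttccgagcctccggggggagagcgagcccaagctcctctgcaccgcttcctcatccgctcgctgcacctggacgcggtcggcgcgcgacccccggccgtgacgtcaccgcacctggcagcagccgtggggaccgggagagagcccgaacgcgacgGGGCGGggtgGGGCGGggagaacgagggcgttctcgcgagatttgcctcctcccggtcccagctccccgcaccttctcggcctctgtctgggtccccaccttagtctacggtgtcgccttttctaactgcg
All 3 windows were rich in G and C, at 77%, 78% and 70.7%. The GC box was found 2 times in ICA1 and SORL1 and 3 times in CD2AP, and SORL1 also held 1 E-box. Windows were at hand for 31 of the 42 members. The GC box was in 21 of these 31 and in 44.6% of all 27305 human windows of this length. The E-box was in 3 of the 31 (SORL1, USP6NL and OTULIN) and in 7.43% of all, the PU.1 letters in 1 (SPPL2A) and in 2.54% of all, and the AP-1 letters in 0 and in 7.76% of all. These counts describe letters in the window and no binding.

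Of the 42 genes, 41 had at least 10 counts in at least 6 libraries and were tested. EPHA1, a receptor tyrosine kinase for ephrins, was the exception, with 3, 10, 17, 16 and 0 counts in the AppHu libraries and 4, 11, 5, 11 and 5 in the AppSAA libraries. Levels between genes were compared as CPM per kb of exon, with exons from GENCODE 44 on GRCh38. Ranks on this scale are among the 12825 tested genes for which such a length was found. Means over all libraries ran from 0.0557 for EPHA1 to 292 CPM per kb for GRN, as the plot of levels in all libraries shows. Of the 42 genes, 28 lay above the median of these tested genes with a length, and 23 had at least 1000 counts in every library.

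**Figure D1:**
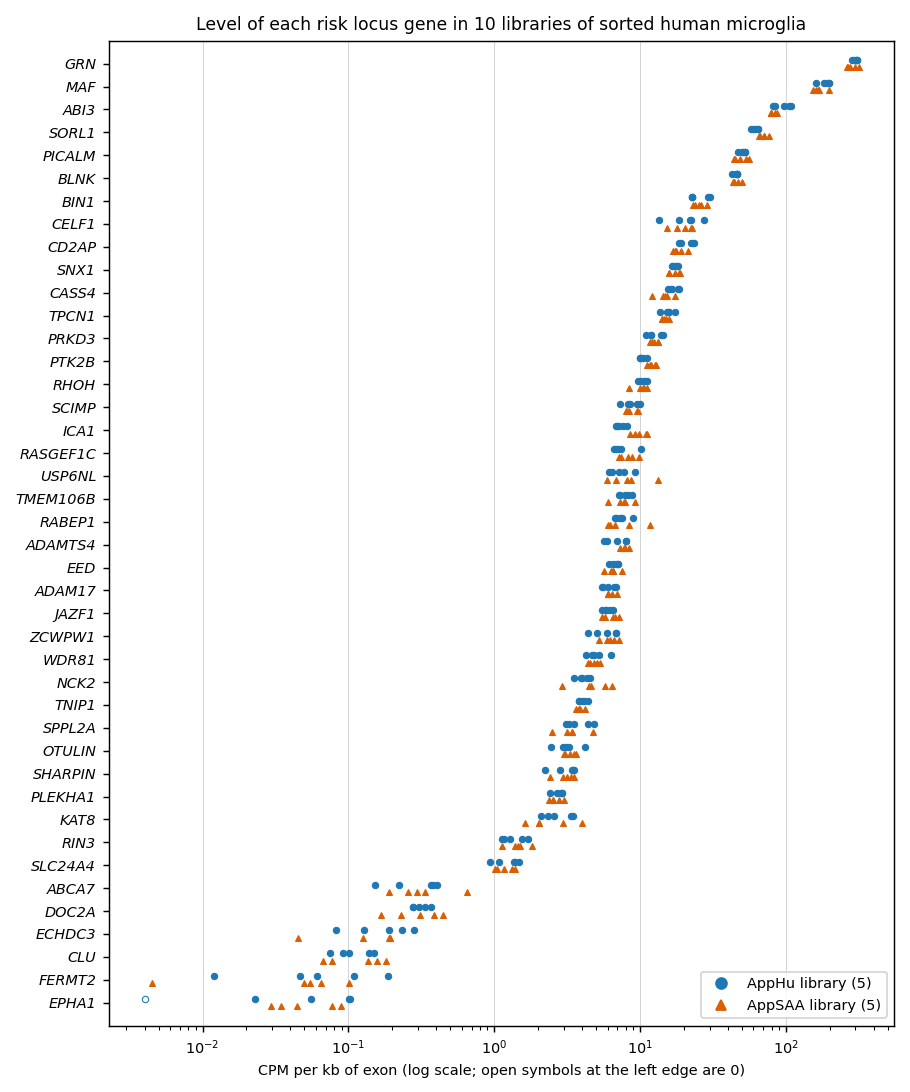
Level of the 42 risk locus genes in CPM per kb of exon (log axis), 1 point per library, circles for the 5 AppHu and triangles for the 5 AppSAA libraries. GRN and MAF were the highest (means of 292 and 178 CPM per kb) and EPHA1, FERMT2, CLU and ECHDC3 the lowest, and for most genes the symbols of both groups cover the same range.

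GRN encodes progranulin, a secreted and lysosomal protein whose loss causes frontotemporal dementia. It had the highest level of the members at 299.7 ± 9.05 CPM per kb (SD, n = 5) in AppHu and 285 ± 22.6 CPM per kb (SD, n = 5) in AppSAA. Its mean over all libraries lay above 99.4% of the tested genes with a length. Next came MAF, a transcription factor of macrophages, at 187 ± 15.4 CPM per kb (SD, n = 5) in AppHu and 169.6 ± 17.0 CPM per kb (SD, n = 5) in AppSAA. ABI3, a subunit of the WAVE complex that drives actin branching, was the next at 95.5 ± 12.1 CPM per kb (SD, n = 5) in AppHu and 81.6 ± 3.87 CPM per kb (SD, n = 5) in AppSAA. SORL1, PICALM and BLNK followed with means over all libraries of 65.8, 49.9 and 45.7 CPM per kb, with SORL1 above 96.6% of the tested genes with a length. The libraries of GRN and MAF did not overlap each other on this scale, nor did those of MAF and ABI3. Those of PICALM and BLNK did.

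The comparison of AppSAA with AppHu asks whether microglia in a brain with plaques change the expression of these genes. edgeR's quasi-likelihood p-values, adjusted by Benjamini and Hochberg's method over all 15455 human genes tested, were under the threshold of 0.05 for 0 of the 41 members, beside 0.0776% of all genes tested (0.0712% with higher levels in AppSAA). In DESeq2 1 member passed, ICA1, where 1.39% of all genes did (0.99% higher and 0.401% lower in AppSAA), and in limma-voom with sample quality weights ICA1 passed, where 0.336% of all genes did. An unadjusted edgeR p under 0.05 was found for 6 of the 41 members (ICA1, PTK2B and SORL1 with values above 0, ABI3, CD2AP and CASS4 with values below 0), or 14.6%, beside 9.8% of all genes (5.99% above 0 and 3.8% below). Leaving out 1 library moved that number to between 4 and 8. The log2 fold changes of the 41 ranged from -0.60 to 0.44 with a median of -0.015, beside a median of 0.0018 over all genes, and 23 of the 41 were below 0.

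The intervals bound the change that these libraries allow. For 33 of the 41 members, or 80.5%, the 95% interval of the fold lay within 1.5-fold in both directions, beside 60.1% of all genes tested. The 8 others were ICA1, NCK2, USP6NL, KAT8, ABCA7, CLU, ECHDC3 and FERMT2. The last 4 had at most 189 counts in any library, and a 1.5-fold difference lies within their intervals. DOC2A, with 31 to 75 counts, lay just inside the bound, and the parts of depth and of spread between mice in the width of the intervals were not tested. The median SD of a member between mice of a group was 0.15 on the log2 scale, beside 0.22 for all genes.

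**Figure D2:**
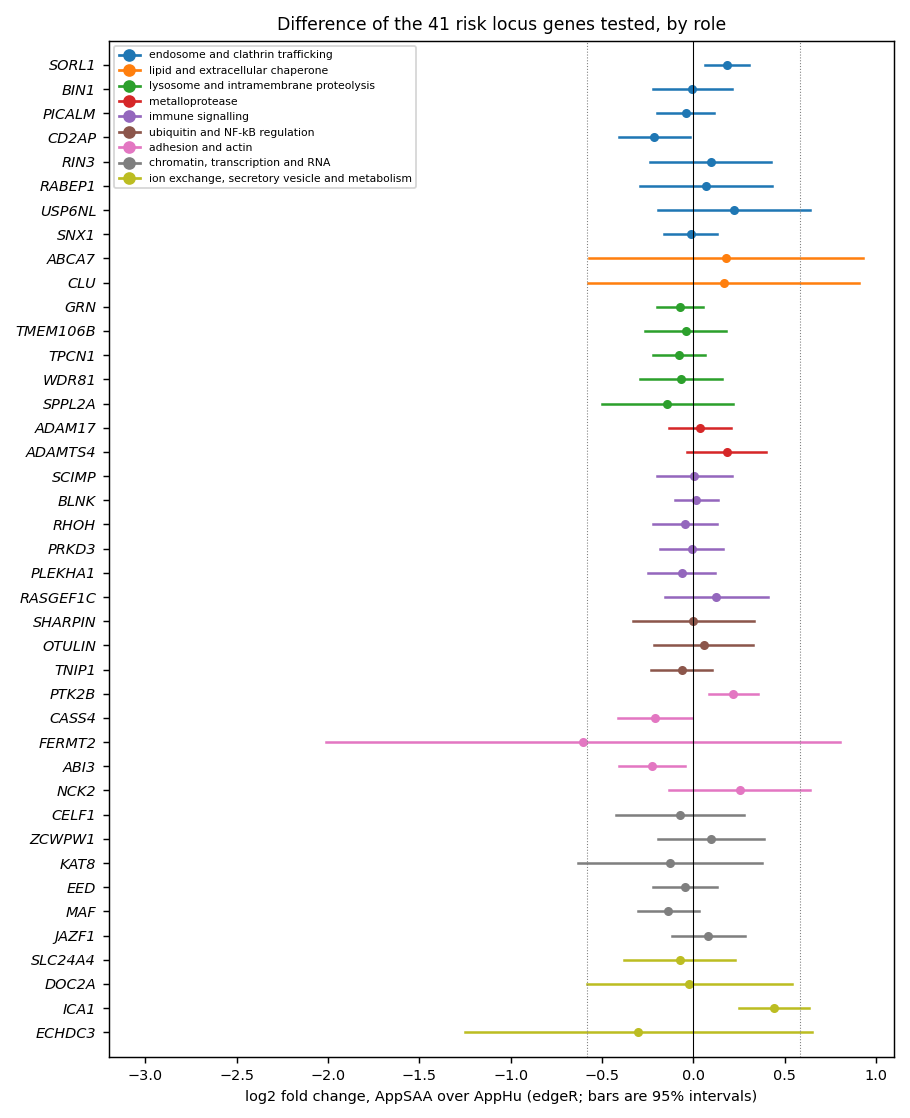
Log2 fold change of AppSAA over AppHu for the 41 risk locus genes tested, with edgeR's 95% intervals (bars) and colours by role. Dotted lines mark 1.5-fold in both directions. The intervals of ICA1, PTK2B, SORL1, ABI3, CD2AP and CASS4 leave out 0, and that of FERMT2 runs from -2.01 to 0.80.

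ICA1 (ENSG00000003147.19, chromosome 7, 8113184 to 8262687, reverse strand) encodes islet cell autoantigen 1, a BAR domain protein of the Golgi and of secretory vesicles. Its AppHu libraries, in the order of replicates 3, 4, 6, 7 and 8, had 39.5, 34.2, 37.2, 33.4 and 35.1 CPM, and its AppSAA libraries, in the order of replicates 4, 5, 6, 7 and 8, had 45.3, 41.5, 54.0, 48.1 and 54.8 CPM. All 5 AppSAA libraries lay above all 5 AppHu libraries, with the lowest AppSAA value in replicate 5. The means were 35.9 ± 2.47 CPM (SD, n = 5) in AppHu and 48.7 ± 5.70 CPM (SD, n = 5) in AppSAA, a log2 fold change of 0.44 (standard error 0.0890, 95% interval 0.25 to 0.64), or 1.36-fold (95% interval 1.19 to 1.55). The adjusted p was 0.0853 in edgeR, 0.00164 in DESeq2 and 0.0298 in limma-voom. A two-sided exact permutation test on log2 CPM gave p = 0.00794, the smallest that 5 against 5 mice allow. Groups that do not overlap give this value by construction. The same permutation test gave p = 0.00794 for SORL1, 0.0159 for PTK2B, 0.0476 for ABI3, 0.0556 for CASS4 and 0.0635 for CD2AP. By its edgeR p ICA1 ranked 52 among the 15455 tested. Without AppSAA replicate 5 it passed the threshold in edgeR (adjusted p = 0.0386), and over 22 alternatives its log2 fold change stayed between 0.40 and 0.53 while its adjusted p ran from 0.00164 in DESeq2 to 0.296 in edgeR with the library total as a covariate.

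**Figure D3:**
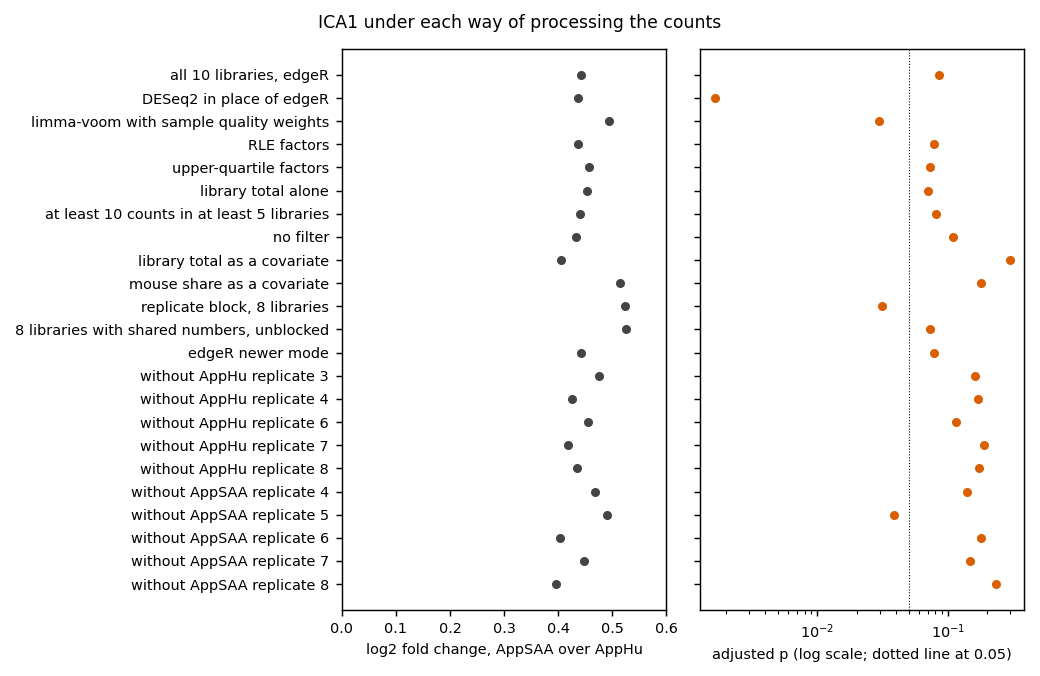
ICA1 under each way of processing, 1 row per setting, with the log2 fold change of AppSAA over AppHu on the left and the adjusted p (log axis) on the right. The fold change stays between 0.40 and 0.53, and the adjusted p crosses the dotted line at 0.05 in DESeq2, in limma-voom, with the replicate number as a block and without AppSAA replicate 5.

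Genes of endosomes and clathrin-coated vesicles form the largest role among the members, with 8 genes, all tested. Of these, 4 had log2 fold changes above 0 and 4 below, and 0 passed the threshold in edgeR. SORL1 (ENSG00000137642.13, chromosome 11, 121452314 to 121633763, forward strand) encodes a sorting receptor that binds APP and carries it from endosomes back to the Golgi with the retromer. It had 1118, 1194, 1247, 1257 and 1162 CPM in the AppHu libraries and 1275, 1379, 1286, 1478 and 1380 CPM in the AppSAA libraries, in the same order. The groups did not overlap, and the gap between them, from 1257 to 1275 CPM, was small beside the spread within either group. Groups that do not overlap were found for 2 of the 41 members (SORL1 and ICA1, both with AppSAA above), where 2.49% of all genes tested had them (1.58% with AppSAA above and 0.912% with AppSAA below). The log2 fold change of SORL1 was 0.19 (standard error 0.0556, 95% interval 0.065 to 0.31), with an adjusted p of 0.251 in edgeR and 0.171 in DESeq2.

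CD2AP (ENSG00000198087.7, chromosome 6, 47477789 to 47627263, forward strand) encodes an adaptor that links the actin skeleton to endocytosis. It had 129, 152, 125, 159.7 and 157 CPM in AppHu and 144, 114, 118, 129 and 118 CPM in AppSAA. The groups overlapped, with AppSAA replicates 4 and 7 within the range of AppHu and the other AppSAA libraries below it. The log2 fold change was -0.21 (standard error 0.0887, 95% interval -0.41 to -0.021, adjusted p = 0.452 in edgeR).

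BIN1 and PICALM stand at loci with some of the strongest common signals after APOE. BIN1, which bends membranes and acts in endocytosis, had 156 to 209 CPM in AppHu and 159 to 198 in AppSAA, a log2 fold change of -0.0064 (95% interval -0.22 to 0.21 in edgeR). PICALM, the adaptor that brings clathrin to the membrane, had 300.3 to 334 CPM in AppHu and 279 to 354 in AppSAA, a log2 fold change of -0.043 (95% interval -0.20 to 0.11 in edgeR). For both the groups overlapped, with 4 of the 5 AppSAA libraries of PICALM outside the narrower AppHu range, 2 below it and 2 above. Both intervals lay within 1.5-fold. SNX1, a sorting nexin of the retromer, was at -0.015 with an interval of -0.16 to 0.13. Of the members that act on the GTPase RAB5, RIN3 activates it, RABEP1 is its effector and USP6NL switches it off. Their log2 fold changes were 0.094, 0.068 and 0.22, with standard errors of 0.152, 0.167 and 0.191. AppSAA replicate 7 was the highest library for RIN3, RABEP1 and USP6NL, at 15.8, 83.1 and 101 CPM. Without it their log2 fold changes were 0.00041, -0.12 and 0.0057. Exons of NUP88 on the opposite strand cover 53.6% of the exon bases of RABEP1. The strand setting of the counting is not stated, so reads of these 2 genes may not be told apart. The same limit holds for smaller shares of other members. Among them are 11.6% of the exon bases of JAZF1 (under TAX1BP1 and JAZF1-AS1) and 10.3% of those of ADAM17 (under IAH1).

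Partners of these 8 genes were read from lists. The counts in this and the later lists stand beside 9.8% of all genes with an unadjusted edgeR p under 0.05. In DESeq2 1.39% of all genes passed. Among 10 genes of the retromer and the sorting nexins 0 passed in edgeR or DESeq2 and 1 (VPS29, a retromer subunit, at 0.17) had an unadjusted edgeR p under 0.05. Among 11 genes of clathrin and the AP-2 adaptor 0 passed in either tool and 0 had such a p. Of 7 genes of the RAB5 cycle tested, 0 passed in edgeR and 1 in DESeq2. RAB5C, an isoform of the GTPase itself, was lower in DESeq2 (adjusted p = 0.0280) and did not pass in edgeR (adjusted p = 0.169), with means of 102 CPM in AppHu and 82.4 in AppSAA, a log2 fold change of -0.31 (standard error 0.0777), and groups that did not overlap.

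Of the 5 adhesion and actin genes tested, 0 passed the threshold in edgeR or DESeq2. An unadjusted edgeR p under 0.05 was found for 3 (PTK2B above 0, ABI3 and CASS4 below 0), beside 9.8% of all genes tested. PTK2B (ENSG00000120899.18, chromosome 8, 27311482 to 27459391, forward strand) encodes PYK2, a kinase that signals from integrins and calcium. It had 88.3, 78.3, 80.1, 78.6 and 82.8 CPM in AppHu and 100.4, 101, 93.5, 91.9 and 88.3 CPM in AppSAA. AppHu replicate 3 and AppSAA replicate 8 overlapped at 88.3 CPM, and the other libraries were apart. The log2 fold change was 0.22 (standard error 0.0617, 95% interval 0.085 to 0.35), with an adjusted p of 0.227 in edgeR and 0.0764 in DESeq2.

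ABI3 (ENSG00000108798.9, chromosome 17, 49210411 to 49223225, forward strand) had 246, 191, 186, 223 and 240.2 CPM in AppHu and 179, 197, 192, 179.5 and 179 CPM in AppSAA. AppHu replicates 3, 7 and 8 lay above all AppSAA libraries, and AppHu replicates 4 and 6 among them. The log2 fold change was -0.23 (standard error 0.0829, 95% interval -0.41 to -0.047, adjusted p = 0.365 in edgeR), and 5.77% of its exon bases lie under exons of GNGT2 on the opposite strand. CASS4 (ENSG00000087589.17, chromosome 20, 56412112 to 56460387, forward strand), a scaffold protein of the family of BCAR1 and NEDD9 that binds PYK2 and its relative FAK, had 93.0, 84.4, 79.6, 81.7 and 94.7 CPM in AppHu and 60.9, 77.1, 88.8, 73.1 and 75.1 CPM in AppSAA. AppSAA replicate 6 lay within the AppHu range and the other 4 AppSAA libraries below it. Its log2 fold change was -0.21 (standard error 0.0933, 95% interval -0.41 to -0.0064, adjusted p = 0.491 in edgeR). NCK2, an adaptor between receptors and actin, was at 0.25 (standard error 0.177), and its AppSAA libraries spread from 8.66 to 19.0 CPM beside 10.5 to 13.4 in AppHu. Among 9 other genes of the WAVE complex and 10 of integrin adhesion, 0 passed in edgeR or DESeq2, and 1 of each list (NCKAP1L and PXN, both below 0) had an unadjusted edgeR p under 0.05. NCKAP1L, the WAVE subunit of blood cells, was at -0.16 on the log2 scale, with a standard error of 0.0480 and groups that did not overlap (adjusted p = 0.242 in edgeR).

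**Figure D4:**
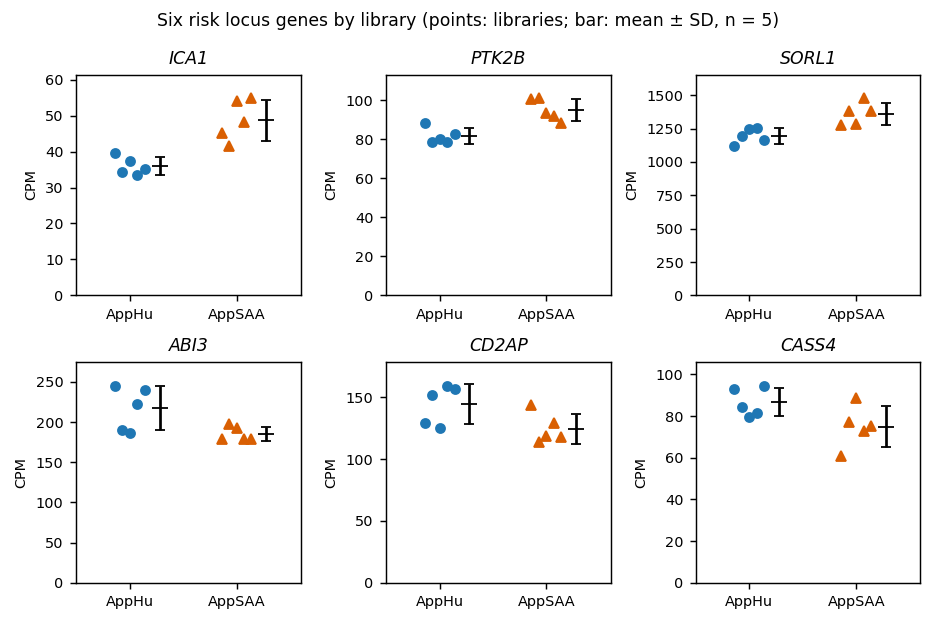
CPM of ICA1, PTK2B, SORL1, ABI3, CD2AP and CASS4 in each library (circles AppHu, triangles AppSAA), with the mean ± SD of 5 libraries as a bar and axes from 0. For ICA1 and SORL1 no AppSAA library falls to the level of AppHu, for PTK2B they overlap by 1 library of each group, and for ABI3, CD2AP and CASS4 they overlap.

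The 5 lysosomal and intramembrane protease genes had log2 fold changes from -0.14 to -0.043, and 0 of the 5 had an unadjusted p under 0.05. GRN had 1084, 1008, 1066, 1041 and 1082 CPM in AppHu and 975, 1115, 1055, 928 and 942 CPM in AppSAA. AppSAA replicates 4, 7 and 8 lay below all AppHu libraries, and AppSAA replicate 5 above them. Its log2 fold change was -0.074 with an interval of -0.20 to 0.052 (adjusted p = 0.759 in edgeR). TMEM106B, a lysosomal membrane protein whose variants modify disease from GRN mutations, was at -0.043 (95% interval -0.27 to 0.18). TPCN1, a calcium channel of endosomes and lysosomes, was at -0.078, WDR81, which acts in endosome maturation, at -0.069, and SPPL2A, which cuts CD74 and TNF stubs within the membrane, at -0.14. All 5 intervals lay within 1.5-fold. Without AppSAA replicate 7, the highest AppSAA library of SPPL2A at 74.2 CPM, SPPL2A was at -0.29. Of 4 genes listed with progranulin and TMEM106B and 3 relatives of SPPL2A, 0 passed in edgeR or DESeq2, and TMEM106A (0.12) and HM13 (-0.19) had an unadjusted edgeR p under 0.05.

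ADAM17, the protease that sheds TNF and TREM2 from the cell surface, had 88.1 to 110.1 CPM in AppHu and 95.7 to 111 in AppSAA, a log2 fold change of 0.033 (95% interval -0.14 to 0.20 in edgeR). ADAMTS4, which degrades proteoglycans of the extracellular matrix, was at 0.18 (95% interval -0.033 to 0.40). RHBDF2 encodes iRhom2, without which ADAM17 does not mature in macrophages. It had means of 180.0 CPM in AppHu and 224 in AppSAA and groups that did not overlap, with a log2 fold change of 0.32 (standard error 0.0784), and was higher in DESeq2 (adjusted p = 0.0330) but did not pass in edgeR (adjusted p = 0.157). TIMP3 and RHBDF1 were under the filter on counts, and 0 of the other 3 genes tested in this list passed in either tool or had an unadjusted edgeR p under 0.05.

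The 6 immune signalling genes had log2 fold changes from -0.065 to 0.13, none with an unadjusted p under 0.05, and all 6 intervals lay within 1.5-fold. BLNK, which links the kinase SYK to its targets, had the narrowest interval of the members tested (-0.10 to 0.13) at 453 to 492 CPM in AppHu and 459.7 to 532 in AppSAA. SCIMP, a membrane adaptor of Toll-like receptors, had 31.2 to 42.4 CPM in AppHu and 34.3 to 41.1 in AppSAA and a log2 fold change of 0.0050. RHOH, a GTPase of blood cells, PRKD3, a kinase activated by diacylglycerol, and PLEKHA1, which binds phosphoinositides, were at -0.044, -0.0100 and -0.065. RASGEF1C, an activator of small GTPases, was at 0.13. Of the 9 genes of immunoreceptor signalling listed beside them, 0 passed in edgeR or DESeq2, and SYK (-0.20) had an unadjusted edgeR p under 0.05.

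SHARPIN belongs to the complex that builds linear ubiquitin chains, OTULIN takes such chains apart, and TNIP1 binds them and, with A20, restrains NF-κB. Their log2 fold changes were 0.00026, 0.055 and -0.065, with standard errors of 0.152, 0.125 and 0.0771, and all intervals lay within 1.5-fold. Of the 7 partners tested, A20 (TNFAIP3) among them, 0 passed in edgeR or DESeq2 and 0 had an unadjusted edgeR p under 0.05.

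Among the 6 nuclear and RNA-binding genes, MAF had 1275, 1349, 1133, 1380 and 1396 CPM in AppHu and 1124, 1385, 1174, 1070 and 1182 CPM in AppSAA. AppSAA replicates 4 and 7 lay below all AppHu libraries and the other 3 within their range. The log2 fold change was -0.14 (standard error 0.0770, 95% interval -0.31 to 0.029, adjusted p = 0.619 in edgeR). EED, the subunit through which the repressor complex PRC2 reads methylated histones, was at -0.046, KAT8, a histone acetyltransferase, at -0.13, and ZCWPW1, a histone methylation reader of the germ line, at 0.098. AppSAA replicate 7 was the highest library of KAT8, at 23.0 CPM. Leaving out 1 library moved the log2 fold change of KAT8 to between -0.36 and -0.013. JAZF1, a cofactor of nuclear receptors, was at 0.081. CELF1, which controls splicing and mRNA decay, was at -0.074, and its AppHu libraries ran from 143 to 291 CPM. None of the 6 had an unadjusted p under 0.05, nor did any of the 7 PRC2 partners. Of the 10 partners of KAT8, KANSL1 (0.21) and MSL2 (-0.37) had one, and 0 passed in edgeR or DESeq2.

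The other genes of ion exchange, secretory vesicles and metabolism were SLC24A4, DOC2A and ECHDC3. SLC24A4, an exchanger of sodium, calcium and potassium, had 13.9 to 21.8 CPM in AppHu and 14.9 to 20.5 in AppSAA (log2 fold change -0.076, standard error 0.139). DOC2A, a calcium sensor of vesicle release in neurons, had 31 to 75 counts per library and a log2 fold change of -0.022 (standard error 0.259). ECHDC3, a mitochondrial protein of the enoyl-CoA hydratase family, had 5, 16, 10, 17 and 18 counts in AppHu and 8, 11, 10, 3 and 13 in AppSAA. These values overlapped widely, and its log2 fold change of -0.30 had an interval of -1.25 to 0.65.

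CLU, ABCA7 and FERMT2 were low on the human rows, and their reads lay partly or mostly on mouse rows. CLU encodes clusterin, a secreted chaperone that astrocytes make in quantity. Human CLU had 26, 18, 31, 21 and 17 counts in AppHu and 14, 26, 10, 26 and 35 in AppSAA, with no order between the groups. Mouse Clu had 479 to 5221 counts in AppHu (median 1875) and 871 to 4777 in AppSAA (median 2353), so 99.1% of the counts on both rows were on the mouse gene. FERMT2, a kindlin that activates integrins in cells outside the blood, had 11, 61, 33, 17 and 3 human counts in AppHu and 25, 1, 10, 14 and 17 in AppSAA, from 1 to 61 over the 10 libraries. Its log2 fold change of -0.60, the largest in size among the members, had an interval of -2.01 to 0.80 (adjusted p = 0.836 in edgeR). Mouse Fermt2 took 94.9% of the counts on both rows, with median counts of 458 in AppHu and 210 in AppSAA. Scaled in the edgeR fit of mouse genes, it was at -0.29 on the log2 scale with a standard error of 0.187 (adjusted p = 0.677). ABCA7, a lipid transporter, had 48 to 189 human counts per library, and 44.3% of the counts on both rows were on mouse Abca7. Whether part of the low human counts came from mouse reads assigned to the wrong species was not tested.

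**Figure D5:**
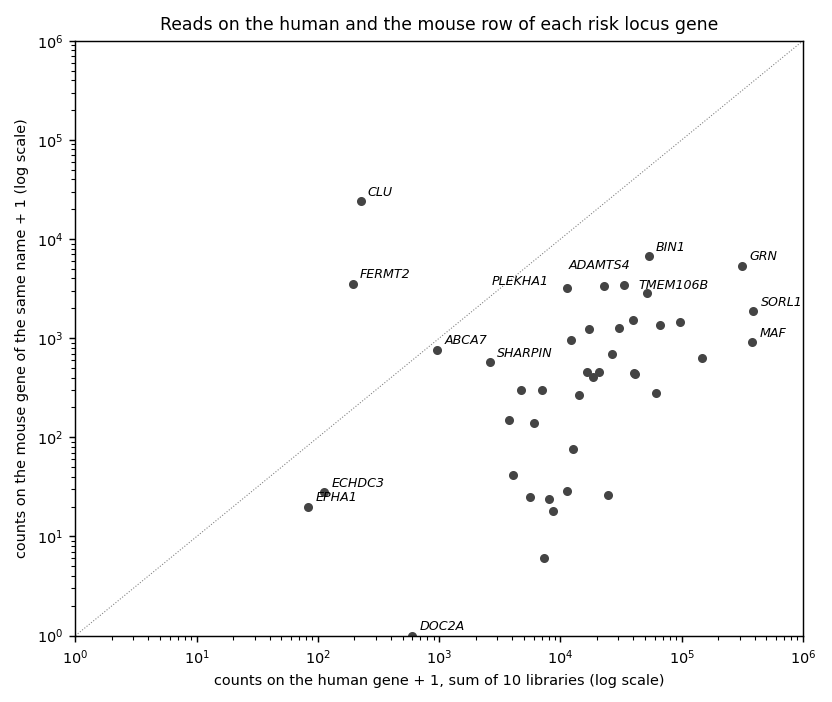
Counts on the human row and on the mouse row of the same gene name, summed over 10 libraries, plus 1, for the 42 risk locus genes (both axes log). CLU and FERMT2 lie above the dotted line of equal counts, and all other genes lie below it.

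For 28 of the 42 members the mouse row held under 5% of the counts on both, and for SORL1, GRN and MAF it held 0.479%, 1.68% and 0.239%. BIN1 was at 11.2%, ADAMTS4 at 12.9% and PLEKHA1 at 21.8%, and mouse Bin1 had 701 to 1363 counts in AppHu and 167 to 598 in AppSAA. Scaled in the edgeR fit of mouse genes, mouse Bin1 was at -0.48 on the log2 scale with a standard error of 0.307 (adjusted p = 0.675). The 6 mouse markers of oligodendrocytes, cells rich in Bin1, summed to 1701 to 3366 CPM of all counts in AppHu and 667 to 1793 in AppSAA, and their part in the mouse values was not tested. In a separate edgeR fit of 9376 mouse genes, 0 of the 30 mouse genes of these names that were tested passed the threshold and 0 of all mouse genes did. Of the 30, 4 had an unadjusted p under 0.05 in edgeR (Grn, Wdr81 and Abi3 above 0, Plekha1 below 0), beside 9.36% of all mouse genes. On the log2 scale mouse Grn, at 0.87 with a standard error of 0.259 (adjusted p = 0.456 in edgeR), stood beside -0.074 for human GRN, and no test of that difference was made.

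The risk genes of other families give the scale for these values. Of 45 such genes, 36 were tested and 0 passed in edgeR, 8 (22.2%, beside 9.8% of all genes) had an unadjusted edgeR p under 0.05, and 4 passed in DESeq2, where 1.39% of all genes did. HLA-DRB1 and APOE were higher in AppSAA (log2 fold changes of 0.47 and 0.35, DESeq2 adjusted p of 0.00189 and 0.0174), and MS4A6A and MS4A4A were lower (-0.57 and -0.47, DESeq2 adjusted p of 0.000625 and 0.0267). The median log2 fold change of the 36 was -0.060. Reads of HLA-DRB1 can be shared with its near-identical relatives, so its value is uncertain. Among the 95 partner genes, 91 were tested, 0 passed in edgeR, 10 (11%, beside 9.8% of all genes) had an unadjusted edgeR p under 0.05, and 2 passed in DESeq2 (RHBDF2 and RAB5C), with a median of -0.038.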

How the data were processed

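Libraries of sorted human microglia from 5 AppHu and 5 AppSAA mice were compared. For each library the authors used the SMART-Seq HT PLUS kit, aligned its single reads with STAR 2.7.11a to mm10 and GRCh38 joined as 1 genome, and assigned reads to genes in featureCounts 2.0.1. The deposited values are whole-number counts without normalization. The annotation release, the strand setting and the treatment of reads with several alignments are not given in the sources used here.

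A human gene needed 10 counts or more in 6 or more libraries. The test was edgeR 4.0.16 under R 4.3.3 (TMM, glmQLFit in its legacy mode, glmQLFTest, no covariate), with Benjamini-Hochberg adjustment over all 15455 genes and a threshold of 0.05. Standard errors were obtained as log2 fold change over the root of F. DESeq2 1.42.0, the authors' tool, limma 3.58.1 (voom), RLE, upper-quartile or no factors, other filters, 2 covariates, the replicate number as a block and each library left out were alternatives. The library total used as a covariate was the log2 of the counts on human genes. The scripts were tested on simulated data with planted changes larger than any found among the members. Detection of changes as small as theirs was not tested. Single genes were also compared by two-sided exact permutation tests over 252 arrangements, on log2 CPM with 0.5 added to each count. Exon lengths and positions are from GENCODE 44, matched by symbol for 83.0% of the genes tested, and promoter windows from RefSeq. Replicate pairs within a group for which the ratio could be formed differed by more than sampling noise (chi-square 14.4 to 56.4 times its degrees of freedom). The ratio was missing for pairs in which some gene had 0 counts in both libraries. Each mouse counted as 1 replicate. The members and lists were chosen with earlier results of these data known. All members are accounted for, and values in every library are given for members with an unadjusted p under 0.05, with groups that do not overlap, or among the 3 highest levels per length or the 3 largest fold changes.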

Additional observations from a re-analysis of the deposited data

Results flagged for a closer look

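RASGEF1C had 30.5 CPM in AppHu replicate 6, while the other 4 AppHu libraries lay between 20.1 and 22.3 CPM. The gap to the nearest library was 0.792 of the range of the group. Of 82 groups of 5 looked at (41 members in both genotypes) it was the only one past Dixon's 95% critical value, which chance passes in about 1 in 20 groups.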

How the results depend on the processing

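Over 22 alternatives, 18 called 0 of the members and 4 called 1, which was ICA1 each time. These were DESeq2, limma-voom, the replicate block and edgeR without AppSAA replicate 5, so that leaving out 1 library gave 0 to 1 members called. All human genes called, 12 in edgeR, numbered 215 in DESeq2, 52 in limma-voom, 32 with no filter, 19 in edgeR's newer mode (chosen after seeing the data), 5 with the mouse share and 1 with the library total as a covariate, and 2 to 34 with 1 library left out (2 without AppHu replicate 3 or 7 or AppSAA replicate 8, 4 without AppHu replicate 4 or AppSAA replicate 6, 34 without AppSAA replicate 5). Risk genes of other families called, 0 in edgeR, numbered 4 in DESeq2, 2 in limma-voom, 2 with the replicate block, 1 with no filter and 0 to 1 with 1 library left out. Partner genes called, 0 in edgeR, numbered 2 in DESeq2 and 0 with each library left out. The cause of these differences was not tested. Groups share replicate numbers 4, 6, 7 and 8. Correlations were taken on log2 CPM after the mean of the group was subtracted for each gene, so they concern deviations and not whole profiles. On these deviations same-numbered libraries had correlations of 0.024 to 0.16, over 0.1 for 1 of 4. Each library was compared with the 5 libraries of the other group, and 5 of 8 correlated best with their own number. The labels do not say what the number stands for. Whether same-numbered libraries share more than it cannot be told from these values. With the replicate block over these 8 libraries edgeR called 58 genes, and 6 without it. The 6 members with an interval that leaves out 0 kept their direction in all 22 alternatives. These 6 were picked on the same libraries that the alternatives refit, so a kept direction is no independent evidence for it. Of the 35 others, whose intervals include 0, 22 changed sign in at least 1, and 1 (GRN, -0.17 with the library total as a covariate) moved by more than the replicate SD. FERMT2 and ECHDC3 had at most 61 and 18 counts in a library, and the parts of depth and of spread between mice in their wide intervals were not tested.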
